A study of Homo sapiens with 60 samples.

Results

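The collagen genes encode the alpha chains of the triple-helical proteins of the extracellular matrix, and 44 of the 37334 genes in the deposited table carried a collagen symbol (COL, a number, A, a number). All 44 had at least 1 read in at least 1 of the 60 libraries. Of these, 24 reached at least 1 CPM (reads of a gene scaled to a library total of 1000000 assigned reads) in at least 3 libraries and were tested among 15263 genes that met the same filter. The other 20 were listed at up to 0.896 CPM (COL19A1) and are described by their levels only. Among them were COL2A1, the main collagen of cartilage, COL6A3, COL4A3 and COL12A1.

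Collagen alpha chains are made in the endoplasmic reticulum, where prolyl and lysyl hydroxylases modify them and chaperones help 3 chains wind into a helix. Fibrillar collagens such as types I, III and V are secreted as procollagens, trimmed and cross-linked into fibrils, while type IV forms the sheets of basement membranes, type VI forms beaded filaments around cells and types XIII, XVII and XXIII span the plasma membrane. Cells of neuronal lineage make little fibrillar collagen in the body, and collagens of the nervous system come largely from Schwann cells, fibroblasts and vessels.

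The libraries came from SH-SY5Y, an established human neuroblastoma line labelled wild type, which can be differentiated into neuron-like cells. Every group shared passage 39, 15 cm dishes with 1 dish per replicate, and the same differentiation protocol. Lead (Pb) was present at 0, 0.16, 1.26 or 10 µM from day 5 onward and was renewed with the medium, and 3 dishes for each dose were collected at days 6, 9, 12, 15 and 18, which made 20 groups. The p-values therefore measure the spread between dishes of 1 line at 1 passage, and because whole dishes were lysed, fewer cells of a type and less RNA per cell cannot be told apart. The names of all day 18 libraries start with another prefix than those of the other days, and the labels do not say what the prefix stands for. Differences between day 18 and earlier days cannot be told apart from whatever the prefix marks, whereas Pb was compared within each day and so within 1 prefix.

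Depth ran from 16594259 to 50539599 assigned reads per library, and the 9 markers of sympathetic neuroblasts, the cells from which neuroblastoma derives, were all among the genes tested, with summed levels between 4552 and 16890 CPM. The 3 endothelial markers summed to at most 0.362 CPM and none of them was tested. Markers of Schwann cells and glia (4 of 6 tested) summed to between 3.74 and 19.5 CPM, and fibroblast markers (8 of 9 tested) to between 303 and 465 CPM. Most of the fibroblast sum was THY1 (65.9 to 163.5 CPM), FBLN1 (28.2 to 267.5 CPM), PDGFRA and PDGFRB, and at days 15 and 18 also LUM. DCN, FAP and POSTN never exceeded 2.53, 1.6 and 0.0837 CPM. Epithelial markers (10 of 14 tested) summed to between 22.6 and 44 CPM at days 6 to 15 and to between 129 and 211 CPM at day 18, with KRT1 at 0 in every library. Most of the sum at days 6 to 15 was KRT10, at 20.3 to 39.9 CPM, which was at 10.5 to 20.8 CPM at day 18. In 2 libraries, replicate 1 of day 18 without Pb and replicate 3 of day 6 at 10 µM, long transcripts were low (slopes of -0.514 and -0.487 log2 units per log10 of length, against -0.193 in the next library), so results that rest on them are also given without them.

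COL6A2 was the most abundant collagen and, averaged over the 60 libraries, made up 54.8% of all collagen CPM. COL6A1, its partner chain in type VI collagen, followed with 15.4%, and then COL26A1, a short collagen first found in gonads, with 6.73%, and COL18A1, whose C-terminal fragment is endostatin, with 5.68%. Scaled to the longest transcript, COL6A2 stood at 120 CPM per kb and COL6A1 at 36.5 CPM per kb at day 6 without Pb. COL6A3, the third chain of classical type VI collagen, stood at 0.00893 CPM per kb there and never exceeded 0.72 CPM in any library. The 2 chains of type I collagen were also unequal, with COL1A1 at 3.1 CPM per kb and COL1A2 at 0.156 CPM per kb at day 18 without Pb. Summed over all 44 genes, collagen transcripts without Pb stood at 866 ± 67 CPM (SD, n = 3) at day 6, 844 ± 47.1 at day 9, 1295 ± 36 at day 12, 1331 ± 31.4 at day 15 and 1585 ± 167 at day 18, and the 3 libraries of day 12 all lay above those of days 6 and 9.

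**Figure D1:**
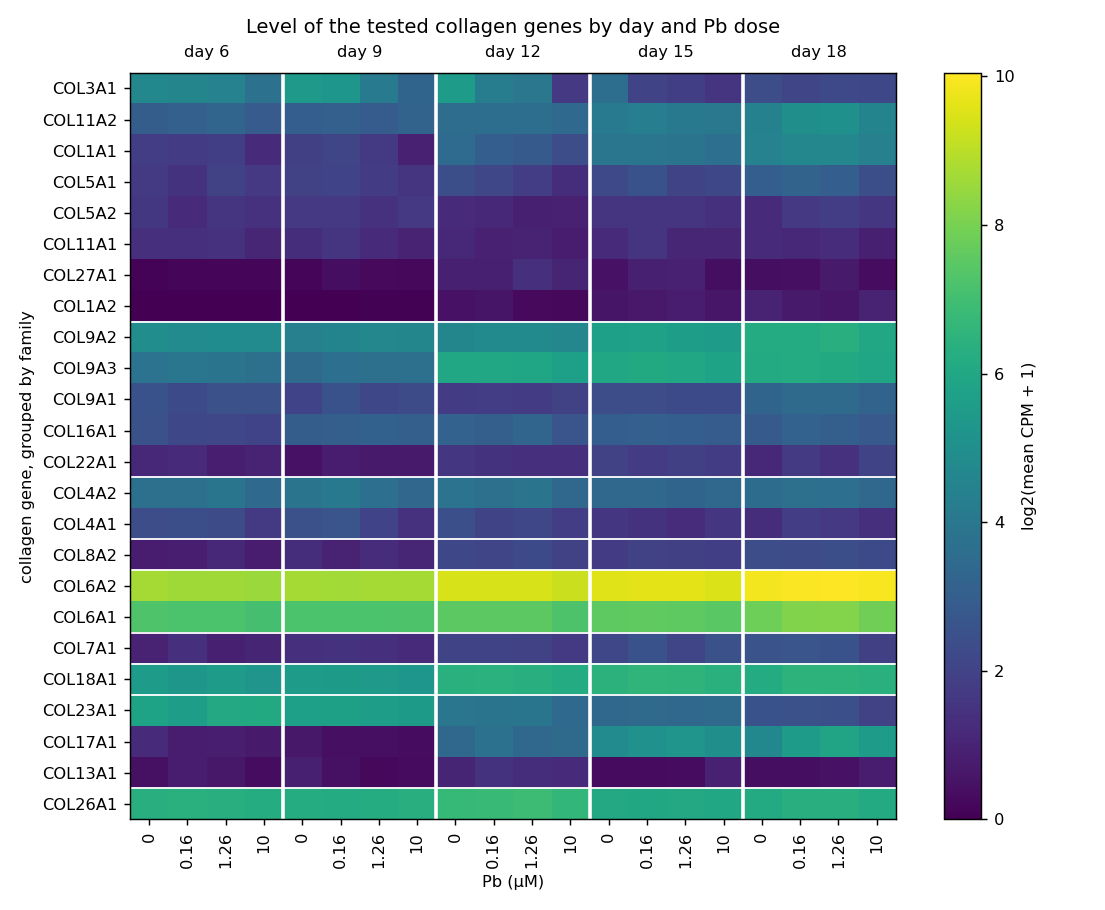
Heat map of the 24 tested collagen genes (rows, grouped by family) in the 20 groups (columns: days 6 to 18, and within each day Pb at 0, 0.16, 1.26 and 10 µM), with colour giving log2(mean CPM + 1) over 3 libraries. COL6A2 and COL6A1 are the brightest rows, COL9A3 and COL17A1 brighten from day 12, COL23A1 darkens, and COL3A1 darkens with dose at days 9 to 15.

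Without Pb, 4 of the 24 collagen genes had changed by day 9 and 19 by day 12. Values were analysed as log2(CPM + 1) with limma over all 60 libraries, and a gene is called changed at a Benjamini-Hochberg adjusted p under 0.05 over all 15263 genes. The days share their day 6 libraries. At day 9, none of the 24 collagen genes was higher, against 2.63% of all genes, and 4 were lower (COL9A1, COL9A2, COL9A3 and COL22A1), against 2.51% of all genes. The count without a higher gene comes from limma, which gave 9 of the 24 an unadjusted p under 0.05 in either direction. At day 9, edgeR called COL3A1 higher (adjusted p = 0.0389) and COL17A1 lower (adjusted p = 0.0349), where limma gave adjusted p-values of 0.0622 and 0.0824. At day 12, 16 were higher and 3 lower, where 21.6% of all genes were higher and 34.6% lower. At day 15, 14 were higher and 4 lower, against 26.2% and 32.2% of all genes. At day 18, 13 were higher and 3 lower, against 32.1% and 34.7%. The median log2 change of the 24 was 0.63 at day 12, 0.51 at day 15 and 0.58 at day 18, where that of all genes tested was -0.11, -0.05 and -0.03. At day 12, rescaling the libraries by median ratios brought the median of all genes to -0.01 and the share of higher genes among all called genes from 38.4% to 51.4%, with 17 collagens higher and 2 lower.

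Among the fibrillar collagens, 8 of 11 were tested. By day 12, 6 of the 8 had risen and none had fallen, where 21.6% of all genes were higher and 34.6% lower. At day 18, 4 were higher and 1 lower than at day 6, against 32.1% and 34.7% of all genes. COL27A1, 1 of the 6, stood at 0.0758 ± 0.0695 CPM at day 6 and 0.84 ± 0.374 at day 12. It reached 1 CPM in 9 libraries, all of days 12 and 15, so the test of its rise at day 12 adds little to these levels. COL1A1 (chromosome 17, 50184101 to 50201631), the main chain of type I collagen in skin, bone and tendon, was at 3, 2.66 and 2.01 CPM at day 6, at 2.59, 3.47 and 2.17 at day 9, at 9.89, 10.9 and 10.6 at day 12, at 17.6, 11.7 and 13.7 at day 15 and at 13.4, 23.8 and 25.2 at day 18. All libraries from day 12 on lay above all of days 6 and 9, and its log2 change from day 6 was 1.70 ± 0.20 (SE) at day 12 (adjusted p = 4.43e-10) and 2.58 ± 0.20 at day 18 (adjusted p = 9.44e-16). COL1A2, the other chain of type I, had no read in the 3 libraries of day 6 without Pb, where 3 reads would be between 0.0908 and 0.137 CPM, and stood at 0.393 ± 0.196 CPM at day 12 and 0.936 ± 0.457 at day 18. It passed the test at days 12, 15 and 18, although its call at day 12 was lost without replicate 2 of day 12. COL1A2 reached 1 CPM in 4 libraries, all of days 15 and 18, so it passed the filter only through late days where it was high. The test of its rise from day 6 therefore adds little to these levels, and COL1A2 is counted among the higher collagens of days 12, 15 and 18.

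COL3A1 (chromosome 2, 188974373 to 189012746), the chain of type III collagen that accompanies type I in stretchable tissues, rose and then fell. Its 3 libraries without Pb were at 24.2, 25.1 and 26.1 CPM at day 6, at 39.6, 45.1 and 39.3 at day 9 and at 46, 45.8 and 46.7 at day 12. At day 15 they were at 10.8, 11.4 and 11.8 and at day 18 at 2.13, 5.07 and 5.3. The libraries of day 12 lay above, and those of days 15 and 18 below, every library of day 6. The log2 change from day 6 was 0.85 ± 0.23 at day 12 (adjusted p = 0.00123), -1.09 ± 0.23 at day 15 (adjusted p = 5.72e-05) and -2.41 ± 0.23 at day 18 (adjusted p = 5.56e-13).

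COL11A2 (chromosome 6, 33162694 to 33193519), a chain of the type XI collagen that nucleates thin fibrils in cartilage and the inner ear, was at 6.47, 7.56 and 6.09 CPM at day 6, at 10, 10.5 and 12.6 at day 12, at 15.8, 17.1 and 17.2 at day 15 and at 12.6, 18.7 and 29.1 at day 18. Each library of days 12, 15 and 18 exceeded all of day 6, and the log2 change at day 15 was 1.21 ± 0.17 (adjusted p = 3.46e-08). COL5A1 (chromosome 9, 134641803 to 134844843), which limits the thickness of type I fibrils, went from 2.19, 2.24 and 2.26 CPM at day 6 to 7.33, 7.29 and 6.75 at day 18, with no overlap and a log2 change of 1.33 ± 0.23 (adjusted p = 2.24e-06). Its partner COL5A2 stood at 2.1 ± 0.202 CPM at day 6 and 1.37 ± 0.574 at day 18 and passed the test at none of the later days. COL5A2 lies 19.2 kb from COL3A1 on chromosome 2.

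The fibril-associated collagens, which sit on the surface of fibrils, moved unequally. COL9A3 (chromosome 20, 62816213 to 62841159) and COL9A2, 2 chains of type IX, were apart in time. COL9A3 was at 13.5, 14.3 and 11.6 CPM at day 6 and 10.2, 9.85 and 10.7 at day 9, then at 66, 60.5 and 67.5 at day 12, at 60.7, 62.9 and 62.5 at day 15 and at 69.7, 73.8 and 67.5 at day 18. All its libraries of days 12 to 18 lay above those of days 6 and 9, with a log2 change from day 6 of 2.22 ± 0.08 at day 12 (adjusted p = 2.36e-27). COL9A2 stood at 29.7 ± 2.94 CPM at day 6, 23.4 ± 2.6 at day 12, 49.5 ± 1.72 at day 15 and 72.2 ± 8.19 at day 18. Its fall at day 12 (log2 change -0.33 ± 0.11, adjusted p = 0.00769) was not called after median-ratio rescaling, by edgeR or without replicate 1 of day 6. The remaining chain of type IX, COL9A1 (chromosome 6, 70215061 to 70303084), was at 5.33, 4.45 and 4.71 CPM at day 6, at 2.55, 1.88 and 3 at day 12 and at 8.28, 7.8 and 9.1 at day 18. All its day 12 libraries were below and all its day 18 libraries above those of day 6, with log2 changes of -0.76 ± 0.15 (adjusted p = 4.78e-05) and 0.69 ± 0.15 (adjusted p = 0.000122).

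Both tested type VI chains rose at days 12, 15 and 18. COL6A2 (chromosome 21, 46098112 to 46132848) was at 454, 406 and 391 CPM at day 6, at 726, 671 and 692 at day 12 and at 881, 1021 and 939 at day 18, without overlap between days 6 and 12. Its log2 change from day 6 was 0.74 ± 0.06 at day 12 (adjusted p = 3.68e-15) and 1.18 ± 0.06 at day 18 (adjusted p = 1.3e-22). COL6A1, 93.1 kb away on chromosome 21, rose less, from 155 ± 13 CPM at day 6 to 183 ± 7.07 at day 12 (log2 change 0.24 ± 0.08, adjusted p = 0.0125), a call lost without replicate 3 of day 6 or replicate 1 of day 12. COL18A1 (chromosome 21, 45405165 to 45513720), a basement membrane collagen, was at 52.6, 45.8 and 40 CPM at day 6, at 86.5, 87 and 73.7 at day 12, at 88, 84.3 and 90.1 at day 15 and at 54.3, 75.3 and 86.4 at day 18. Its libraries of days 12, 15 and 18 all lay above those of day 6, with a log2 change of 0.83 ± 0.15 at day 12 (adjusted p = 6.39e-06).

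**Figure D2:**
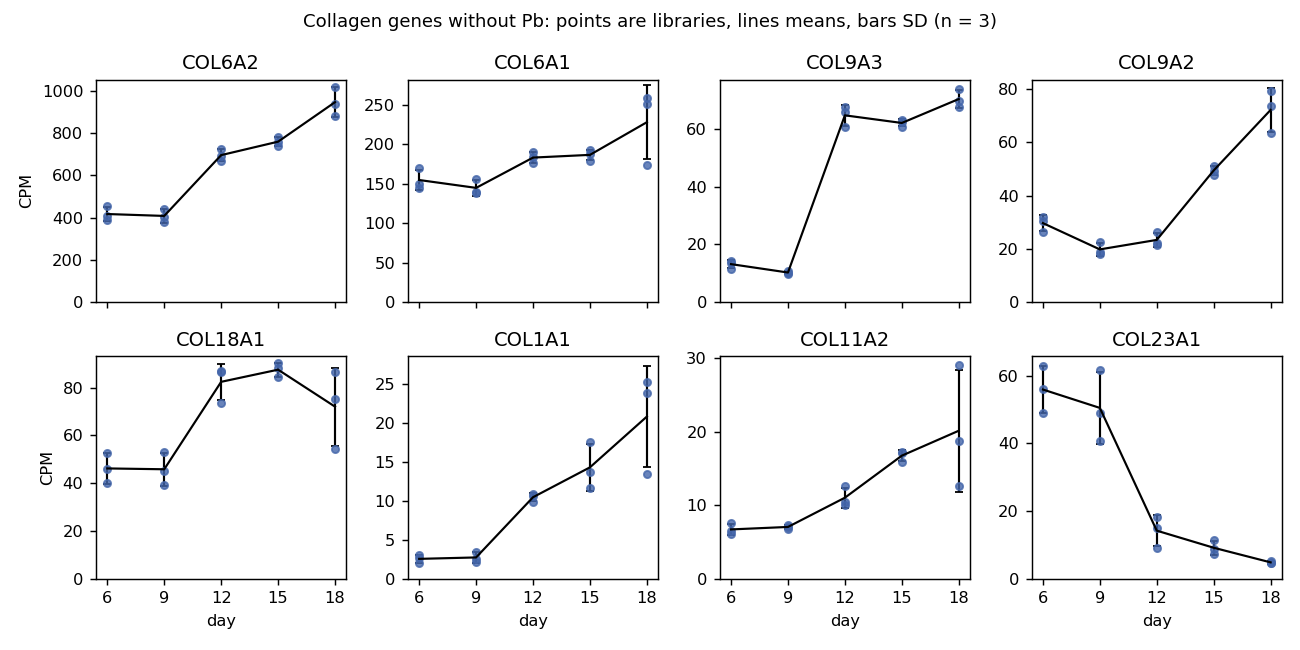
CPM of 8 collagen genes without Pb by day of differentiation; points are libraries, lines join means and bars are SD (n = 3). COL9A3 steps up between days 9 and 12 while COL9A2 rises from day 15, and COL23A1 is the gene of the 8 that falls.

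COL7A1 (chromosome 3, 48564073 to 48595329), which forms the anchoring fibrils under epithelia, was at 1.23, 1.09 and 0.693 CPM at day 6, at 3.71, 2.68 and 3 at day 12, at 3.42, 3.38 and 3.33 at day 15 and at 3.91, 5.86 and 4.82 at day 18, with a log2 change of 1.05 ± 0.18 at day 12 (adjusted p = 2.47e-06). COL8A2, a network collagen of the cornea's basement membrane, stood at 0.726 ± 0.479 CPM at day 6 and 3.54 ± 0.521 at day 12 (log2 change 1.42 ± 0.20, adjusted p = 4.27e-08). COL26A1 peaked at day 12 with 106 ± 6.61 CPM, between 77.3 ± 7.64 at day 6 and 65.7 ± 2.35 at day 15. Its rise at day 12 (log2 change 0.46 ± 0.08, adjusted p = 1.33e-06) held in the alternative analyses, whereas its fall at day 15 (log2 change -0.23 ± 0.08, adjusted p = 0.0089) was lost after median-ratio rescaling, by edgeR, after correction for length and GC content and without replicate 1 of day 6.

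COL4A1 and COL4A2, the ubiquitous chains of basement membrane collagen IV, are transcribed away from each other from starts 126 bases apart on chromosome 13. The stretch between the RefSeq starts is shown because it lies upstream of both genes, and both were lower with Pb. It is given on the plus strand of GRCh38.p14 at chr13:110307158-110307283, has a GC content of 80.2% and holds 1 CCAAT and 1 GGGCGG match, in capitals.
COL4A1-COL4A2: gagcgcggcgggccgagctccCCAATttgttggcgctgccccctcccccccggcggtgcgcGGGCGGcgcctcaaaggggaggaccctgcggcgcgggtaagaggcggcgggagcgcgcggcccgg
Without Pb, COL4A1 was at 4.42, 3.45 and 4.89 CPM at day 6, at 4.97, 4.7 and 4.39 at day 9, at 4.87, 4.32 and 4.44 at day 12, at 2.93, 2 and 1.16 at day 15 and at 1.34, 1.23 and 1.81 at day 18. The libraries of days 15 and 18 lay below all earlier ones, with a log2 change of -0.83 ± 0.20 at day 15 (adjusted p = 0.000436) and -1.09 ± 0.20 at day 18 (adjusted p = 5.45e-06). COL4A2 was at 12.2, 12.6 and 11.5 CPM at day 6, at 14.6, 14.9 and 10.1 at day 12 and at 7.3, 11.8 and 13.3 at day 18, and passed the test on none of the later days. Scaled to length, COL4A2 stood at 1.87 and COL4A1 at 0.642 CPM per kb at day 6, and at 1.66 and 0.22 at day 18. The other 4 type IV genes were not tested, with highest values of 0.362 CPM (COL4A6) to 0.554 CPM (COL4A3).

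On log2(CPM + 1), and leaving aside COL1A2, which had no read at day 6, the 2 collagens with the largest changes from day 6 to days 15 and 18 without Pb span the membrane and moved in opposite directions. COL23A1 (chromosome 5, 178237618 to 178590393), a membrane collagen that binds integrin, was at 56, 62.7 and 49 CPM at day 6, at 40.8, 49 and 61.6 at day 9, at 9.19, 18.3 and 15.1 at day 12, at 7.27, 11.4 and 8.79 at day 15 and at 5.25, 4.53 and 4.76 at day 18. Days 6 and 9 overlapped and all later libraries lay below both, with a log2 change of -1.95 ± 0.26 at day 12 (adjusted p = 9.46e-09) and -3.28 ± 0.26 at day 18 (adjusted p = 1.68e-15). COL17A1 (chromosome 10, 104031286 to 104085880), the hemidesmosomal collagen that anchors basal keratinocytes, was at 1, 1.33 and 1.46 CPM at day 6 and at 0.227, 0.551 and 0.963 at day 9. It then stood at 7.8, 9.31 and 10.8 at day 12, at 29.9, 27.9 and 25.8 at day 15 and at 14, 27.2 and 33.8 at day 18. No library of days 12 to 18 overlapped with days 6 and 9, and the mean was 7.35-fold that of day 6 at day 12 and 22-fold at day 15. The log2 change was 2.18 ± 0.18 at day 12 (adjusted p = 3.56e-14), 3.68 ± 0.18 at day 15 (adjusted p = 3.05e-22) and 3.44 ± 0.18 at day 18 (adjusted p = 2.65e-21). COL13A1, the third membrane collagen tested, stood at 0.377 ± 0.345 CPM at day 6, 1.07 ± 0.0814 at day 12 and 0.292 ± 0.0968 at day 18.

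The 250 bases upstream of the RefSeq starts of COL23A1 and COL17A1 are shown 5′ to 3′ on the transcribed (minus) strand of GRCh38.p14, because these genes mark the ends of the range of change, and their base composition differs. COL23A1 (chr5:178590394-178590643) has a GC content of 74.4% and 2 GGGCGG matches (CCGCCC on the other strand). COL17A1 (chr10:104085881-104086130) has a GC content of 40.4%, 1 CCAAT match (ATTGG) and overlapping TATAA matches on both strands, 207 and 206 bases before the start. All matches are in capitals.
COL23A1: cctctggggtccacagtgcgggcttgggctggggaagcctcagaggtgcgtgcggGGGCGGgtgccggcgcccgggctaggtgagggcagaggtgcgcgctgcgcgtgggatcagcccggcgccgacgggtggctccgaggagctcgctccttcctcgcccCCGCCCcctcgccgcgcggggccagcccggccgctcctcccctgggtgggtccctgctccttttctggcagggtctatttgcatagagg
COL17A1: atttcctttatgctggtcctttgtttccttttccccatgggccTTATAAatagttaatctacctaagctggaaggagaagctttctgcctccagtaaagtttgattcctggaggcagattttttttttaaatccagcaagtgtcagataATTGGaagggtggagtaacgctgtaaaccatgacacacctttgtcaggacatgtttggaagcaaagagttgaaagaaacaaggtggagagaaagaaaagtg
RefSeq promoter entries were matched for 32 of the 44 genes, with 23 starts of 17 tested and 21 starts of 15 untested genes. Some genes thus count more than once, and the windows of COL4A1 and COL4A2 overlap. Each window was searched on both strands for the letters of 4 motifs. GGGCGG, the core of the site of the factor Sp1, was found at 16 of 23 starts of tested collagens (69.6%), at 8 of 21 starts of untested ones (38.1%) and at 42.6% of all 35116 promoters of the table. TATAA, the core letters of the box that sets the start of transcription in some promoters, was found at 26.1%, 14.3% and 18.9% of these starts. CCAAT, the letters bound by the factor NF-Y, was found at 26.1%, 28.6% and 32%. TGANTCA, the letters bound by the dimers of Fos and Jun, was found at 0%, 4.76% and 6.57%. The median GC content was 68.8% in tested collagens, 56.8% in untested ones and 58% in all promoters. A match is a description of the letters and not of a bound site.

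Genes that modify and fold collagen counted 13 higher and 1 lower of 23 tested at day 12, with a median log2 change of 0.34, where 21.6% of all genes were higher and 34.6% lower. SERPINH1 (HSP47), the collagen-specific chaperone, went from 153 to 535 and 194 CPM at days 6, 12 and 18 (log2 change 1.79 ± 0.06 at day 12, adjusted p = 3.54e-30). P4HB, the beta subunit of prolyl 4-hydroxylase, went from 427 to 1054 and 445 CPM, and PPIB, a prolyl isomerase of the endoplasmic reticulum, from 199 to 642 and 262 CPM. At day 18, 10 were higher and 6 lower, against 32.1% and 34.7% of all genes. Of 11 genes for procollagen processing and cross-linking, 3 were higher and 5 lower at day 12, among them ADAMTS2, the procollagen N-proteinase, which went from 16.6 to 2.65 CPM (log2 change -2.27 ± 0.22, adjusted p = 1.96e-12). PCOLCE, which speeds removal of the C-propeptide, fell from 1323 CPM at day 6 to 976 at day 12 and 728 at day 18.

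The other collagen-related lists had called genes in both directions at day 12, where 21.6% of all genes were higher and 34.6% lower. Of 9 collagen receptors, 4 were higher and 1 lower, with ITGA1, the alpha chain of a collagen-binding integrin, falling from 265 to 114 CPM (log2 change -1.22 ± 0.14, adjusted p = 3.15e-10). Of 13 genes of collagen degradation and its inhibitors, 4 were higher and 6 lower. Of 14 collagen-binding matrix proteins, 5 were higher and 4 lower, of 15 genes of TGF-beta signalling 3 and 5, and of 20 transcription factors reported to act on collagen genes 4 and 7. TWIST2, a mesenchymal transcription factor on the last list, went from 0.169 CPM at day 6 to 10.7 at day 12 and 0.933 at day 18. Fibroblast markers counted 4 higher and 2 lower of 8 at day 12, and their summed level lay between 414 and 451 CPM at day 6 and between 367 and 433 CPM at day 12 without Pb. The part of these markers' source in the collagen changes was not tested. Some genes stand on more than 1 of these lists, FAP, LUM and DCN among them.

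A small set of collagens was lower with Pb, and COL3A1 had the largest change of the 24 at each dose. Averaged over the 5 days against 0 µM, 7 of 24 collagens were lower at 10 µM and none higher, where 8.13% of all genes were lower and 6.93% higher. At 1.26 µM, COL3A1 was lower (2.17% of all genes lower) and COL27A1, a fibrillar collagen of cartilage, was higher (1.67% of all genes higher). At 0.16 µM, COL3A1 was lower and no collagen higher, where 0.0655% of all genes were lower and 0.059% higher. Over dose steps from 0 to 10 µM, the mean slope was negative and past the threshold for 8 collagens and positive for none, against 8.39% and 7.26% of all genes. These were COL3A1, COL1A1, COL4A1, COL5A1, COL4A2, COL9A3, COL11A1 and COL7A1, of which edgeR did not call COL11A1 and COL7A1. The median of the 24 collagens at 10 µM was -0.09, against 0.00224 for all genes. The doses of a day share their 0 µM libraries. The count of higher collagens at 10 µM comes from limma, where 10 of 24 had an unadjusted p under 0.05 in either direction, and edgeR also called 7 in all.

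**Figure D3:**
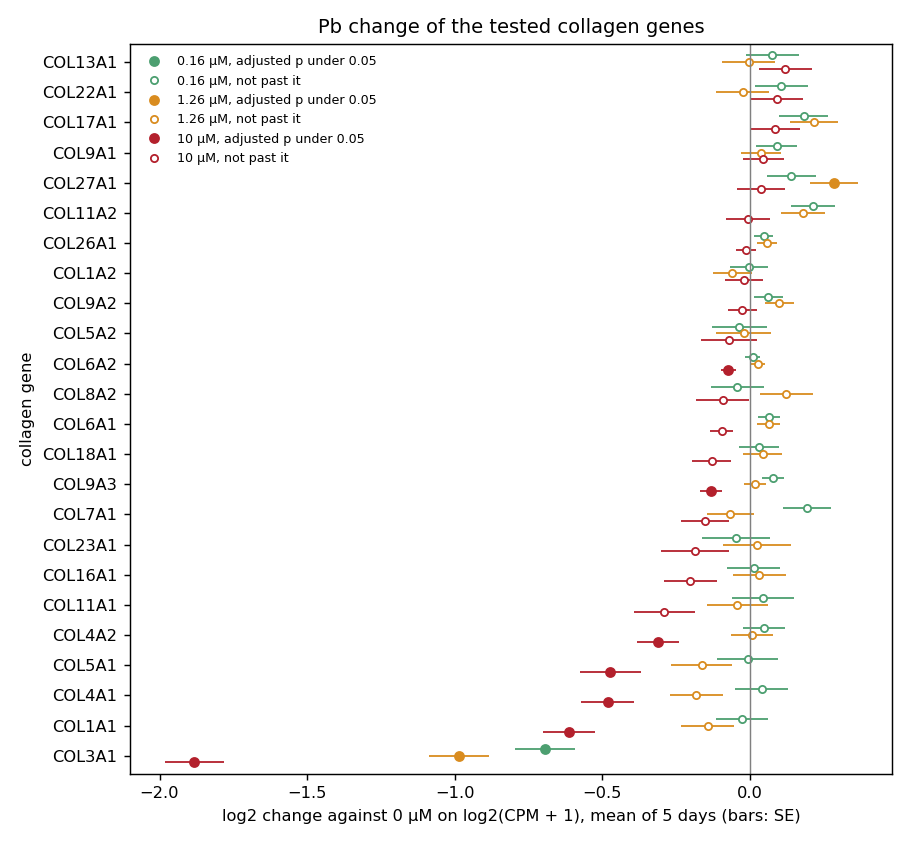
Log2 change of the 24 tested collagens at 0.16, 1.26 and 10 µM Pb against 0 µM on log2(CPM + 1), averaged over the differences within the 5 days; bars are SE of the limma model and filled points are past an adjusted p of 0.05. COL3A1 moves left with each dose, to -1.88, COL1A1, COL4A1, COL5A1 and COL4A2 move left at 10 µM, and most other collagens lie near 0.

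COL3A1 was lower at progressively smaller doses from day 6 to day 12. At day 6, its libraries were at 16.3, 31.6 and 20.5 CPM at 0.16 µM, at 23.9, 21.5 and 18 at 1.26 µM and at 18.8, 13 and 5.5 at 10 µM, against 24.2, 25.1 and 26.1 without Pb. The groups at 1.26 and 10 µM lay below the untreated group, but the test was passed only at 10 µM (log2 change -1.10 ± 0.23, adjusted p = 0.00697). Without replicate 3 at 10 µM, 1 of the 2 libraries low in long transcripts, the change was -0.65 with an adjusted p of 0.347, where the alternatives ran from 0.0064 to 0.769. At day 9, it was at 37.9, 40 and 35 CPM at 0.16 µM, at 19, 16.2 and 15.8 at 1.26 µM and at 7, 9.96 and 8.47 at 10 µM. The libraries at 1.26 µM and 10 µM lay far below the 39.3 to 45.1 CPM without Pb, with log2 changes of -1.23 ± 0.23 (adjusted p = 0.00173) and -2.17 ± 0.23 (adjusted p = 1.12e-09).

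At day 12, the day of the highest untreated level of COL3A1, all 3 doses separated from 45.8 to 46.7 CPM without Pb. COL3A1 was at 18.5, 18.2 and 15.7 CPM at 0.16 µM, at 14.7, 15.1 and 14.4 at 1.26 µM and at 2.37, 1.97 and 2.26 at 10 µM. The log2 change was -1.36 ± 0.23 at 0.16 µM (adjusted p = 0.00256), -1.58 ± 0.23 at 1.26 µM (adjusted p = 5.88e-05) and -3.88 ± 0.23 at 10 µM (adjusted p = 1.37e-17), where the mean without Pb was 21-fold that at 10 µM. At day 15, COL3A1 was at 2.65, 3.24 and 3.54 CPM at 0.16 µM, at 2.56, 2.35 and 2.98 at 1.26 µM and at 1.2, 2.38 and 2.05 at 10 µM, all below the 10.8 to 11.8 CPM without Pb. The log2 change was -1.58 ± 0.23 at 0.16 µM (adjusted p = 0.000136) and -2.12 ± 0.23 at 10 µM (adjusted p = 4.81e-09). At day 18, the 9 exposed libraries lay between 2.52 and 4.27 CPM, inside the untreated range of 2.13 to 5.3 CPM, and no dose passed the test. The untreated library at 2.13 CPM was replicate 1, which was low in long transcripts. The other untreated libraries, at 5.07 and 5.3 CPM, lay above all exposed ones. The 10 µM difference of COL3A1 depended on the day (moderated F test, adjusted p = 2.27e-11).

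**Figure D4:**
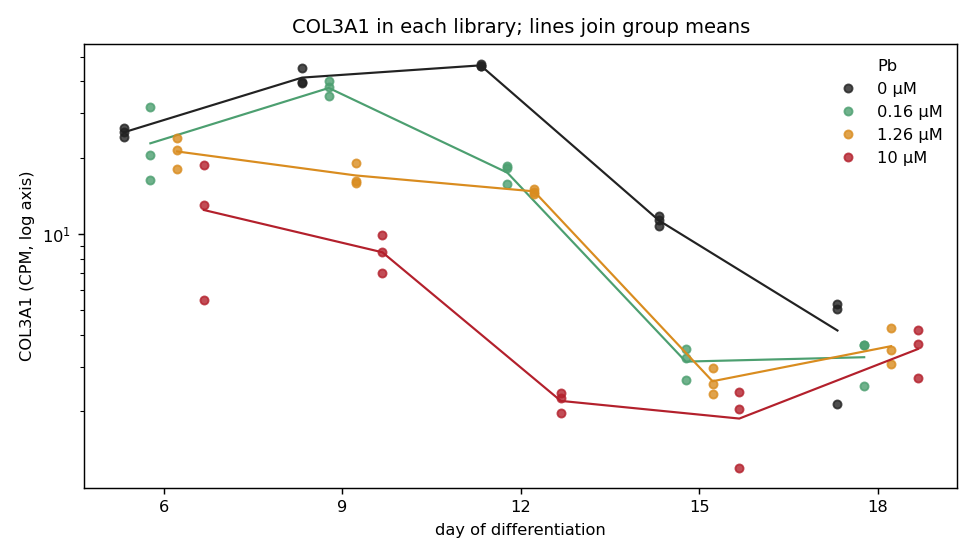
COL3A1 in each library (CPM, log axis) by day of differentiation and Pb dose, with lines joining the means of 3 libraries. The untreated and 10 µM means are 46.2 and 2.2 CPM at day 12. At day 18, all libraries lie between 2.13 and 5.3 CPM, and the untreated one at 2.13 CPM was low in long transcripts.

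COL1A1 and COL5A1, the other fibrillar collagens lowered at 10 µM, changed less. COL1A1 was at 1.68, 1.5 and 0.824 CPM at day 6, at 0.804, 0.724 and 1.17 at day 9, at 3.64, 3.55 and 5.17 at day 12, at 9.14, 13.8 and 12.1 at day 15 and at 18.9, 19.2 and 20.8 at day 18 at 10 µM. These libraries lay below all untreated ones at days 6, 9 and 12 and overlapped with them at days 15 and 18. At day 18, the overlap came from untreated replicate 1 at 13.4 CPM, which was low in long transcripts. The other untreated libraries, at 23.8 and 25.2 CPM, lay above those at 10 µM. The mean log2 change over days was -0.61 ± 0.09 (adjusted p = 5.98e-07), with single-day calls at day 9 (-0.97 ± 0.20, adjusted p = 0.00195) and day 12 (-1.18 ± 0.20, adjusted p = 7.99e-05). At day 12, COL1A1 was also at 6.93, 7.49 and 6.42 CPM at 0.16 µM and at 5.49, 6.77 and 6.18 at 1.26 µM, below the 9.89 to 10.9 CPM without Pb, although these doses did not pass the test. COL5A1 at 10 µM was at 2.02, 1.43 and 1.04 CPM at day 12 and at 5.29, 3.02 and 4.84 at day 18, below the untreated 3.28, 4.53 and 5.32 CPM at day 12 and 6.75 to 7.33 CPM at day 18. Its mean log2 change was -0.47 ± 0.10 (adjusted p = 0.000632), and its change at day 12 was -1.11 ± 0.23 (adjusted p = 0.00167). COL11A1, a partner of COL11A2, had a mean log2 change of -0.29 ± 0.10 at 10 µM (adjusted p = 0.0501). Its slope per dose step, -0.096 ± 0.033, was called by limma (adjusted p = 0.0381) and not by edgeR (adjusted p = 0.0615).

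COL4A1 and COL4A2 were both lower at 10 µM. COL4A1 was at 3.12, 2.38 and 1.26 CPM at day 6, at 2.3, 1.39 and 1.33 at day 9 and at 1.96, 3.25 and 2.36 at day 12 at 10 µM, each below all untreated libraries of its day. At days 15 and 18, it was at 1.4, 2.25 and 2.33 and at 1.29, 1.38 and 2.14 CPM and overlapped with the untreated libraries. Its mean log2 change was -0.48 ± 0.09 (adjusted p = 5.92e-05) and its change at day 9 -1.11 ± 0.20 (adjusted p = 0.000293). COL4A2 at 10 µM was at 10.1, 12.3 and 6.72 CPM at day 6, at 7.62, 9.67 and 9.87 at day 9, at 9.34, 9.76 and 8.34 at day 12, at 7.93, 10.5 and 9.34 at day 15 and at 10.5, 8.59 and 8.31 at day 18. It lay below the untreated libraries at days 9 and 12 and overlapped with them on the other days, with a mean log2 change of -0.31 ± 0.07 (adjusted p = 0.00113). The overlap of COL4A2 at day 18 came from untreated replicate 1 at 7.3 CPM, low in long transcripts. The other untreated libraries of that day were at 11.8 and 13.3 CPM. Over the 20 group means, COL4A1 and COL3A1 correlated with Pearson's r = 0.854 and COL4A2 and COL3A1 with r = 0.755. The other collagens lowered at 10 µM had negative values with COL3A1, namely COL1A1 (r = -0.571), COL5A1 (-0.342), COL9A3 (-0.607) and COL6A2 (-0.658). These values are a description of groups that share libraries, days and doses.

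COL9A3 and COL6A2 were lowered by small amounts. COL9A3 at 10 µM was at 46, 52.5 and 50.1 CPM at day 12, at 55.1, 56.8 and 57 at day 15 and at 58.9, 54.1 and 65.7 at day 18, below the untreated libraries on these 3 days, and at 11.2, 12.9 and 12.6 CPM at day 9, above them. The mean log2 change was -0.13 ± 0.04 (adjusted p = 0.0105) and was not called without day 18 or after correction for length and GC content. COL6A2 at 10 µM was at 578, 605 and 612 CPM at day 12, against 671 to 726 without Pb, and its mean log2 change of -0.07 ± 0.03 (adjusted p = 0.0475) was lost in 17 of 30 analyses that each left out 1 library. The rise of COL27A1 at 1.26 µM (log2 change 0.28 ± 0.08, adjusted p = 0.0365) was lost in 16 of 30 such analyses and by edgeR.

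Within single days, the calls at 0.16 and 1.26 µM before day 18 were COL3A1 alone. At 0.16 µM, no collagen was called at days 6 and 9, where 0% and 0.0131% of all genes were called, and COL3A1 was called at days 12 and 15, where 0.0197% and 0.0131% were. For the days without a call, limma gave 4 and 2 of the 24 an unadjusted p under 0.05, and edgeR called none. At 1.26 µM, no collagen was called at day 6 (0% of all genes, none of the 24 with an unadjusted p under 0.05 by limma, and none called by edgeR), and COL3A1 was called at days 9, 12 and 15, where 0.4%, 0.0459% and 1.26% of all genes were. At 10 µM, 1 of 24 was called at day 6 (0.655% of all genes), 3 at day 9 (1.41%), 7 at day 12 (5.37%), 2 at day 15 (5.68%) and 5 at day 18 (28.9%). Those at day 9 were COL3A1, COL4A1 and COL1A1, and those at day 12 COL3A1, COL1A1, COL5A1, COL4A1, COL9A3, COL6A1 and COL6A2, all lower. The day 12 call of COL4A1 (adjusted p = 0.0371) was lost in 5 of 6 analyses that each left out 1 library and in 3 of 8 alternatives, and that of COL6A1 (adjusted p = 0.0348) in 6 of 6 and 2 of 8. At day 12, leaving out 1 library at a time gave 4 to 6 calls, the fewest without replicate 1 at 0 µM or replicate 1 at 10 µM, and correction for length and GC content gave 4. At day 15, COL13A1 was higher (log2 change 0.64 ± 0.20, adjusted p = 0.0468), a call lost without any of the 6 libraries in turn.

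At day 18, some collagens were higher with Pb. At 0.16 µM, 3 of 24 were higher, where 6.34% of all genes were called and 81.9% of those were higher. At 1.26 µM, 4 of 24 were higher, where 12.4% of all genes were called and 73.5% of those were higher. The higher collagens were COL17A1, COL11A2 and COL6A1 at both doses and COL5A2 at 1.26 µM. COL11A2 was at 32.2, 32.6 and 28.1 CPM at 0.16 µM and at 33.1, 30.9 and 31.9 at 1.26 µM, against 12.6, 18.7 and 29.1 without Pb. The untreated library at 12.6 CPM was replicate 1, which was low in long transcripts. Without it, the log2 change of COL11A2 was 0.39 at 0.16 µM (adjusted p = 0.451) and 0.44 at 1.26 µM (adjusted p = 0.208), and the adjusted p over the alternatives ran from 0.0138 to 0.482 and from 0.0034 to 0.352. Without this replicate, no collagen was called at 0.16 µM and COL17A1 alone at 1.26 µM. Leaving out replicate 1 or replicate 2 at 0.16 µM left COL17A1 as the 1 call there. At 10 µM, COL17A1 and COL22A1 were higher and COL7A1, COL9A3 and COL5A1 lower. COL7A1 was at 2.75, 2.8 and 2.56 CPM, below the 3.91, 5.86 and 4.82 CPM without Pb, with a log2 change of -0.65 ± 0.18 (adjusted p = 0.0049). COL22A1, a fibril-associated collagen of tissue junctions, stood at 3.19 ± 0.663 CPM against 1.23 ± 0.357 (log2 change 0.91 ± 0.20, adjusted p = 0.000447). The falls of COL5A1 and COL9A3 at day 18 were lost in 6 and 3 of 8 alternatives, and 3 collagens in all were called without replicate 1 or 2 at 0 µM or replicate 2 at 10 µM.

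COL17A1 at day 18 was at 43.4, 42.9 and 46.5 CPM at 0.16 µM, at 58.6, 55.8 and 59.6 at 1.26 µM and at 45.5, 39.7 and 48.9 at 10 µM, against 14, 27.2 and 33.8 without Pb. Each exposed group lay above the untreated one, and the means were highest at 1.26 µM and not at 10 µM. The log2 change was 0.88 ± 0.18 at 0.16 µM (adjusted p = 0.0106), 1.27 ± 0.18 at 1.26 µM (adjusted p = 7.46e-05) and 0.89 ± 0.18 at 10 µM (adjusted p = 0.000225). Without replicate 1 of the untreated group, the changes were 0.53, 0.91 and 0.54, with adjusted p-values of 0.335, 0.00581 and 0.0222, so that the calls at 1.26 and 10 µM held. Fits of only the groups compared made no call at any of the 3 doses, and over all alternatives the adjusted p reached up to 0.482, 0.352 and 0.0549. At day 15, COL17A1 was at 31.2, 32.8 and 35.8 CPM at 0.16 µM, at 35.5, 39.4 and 35.9 at 1.26 µM and at 32.3, 27.9 and 33.9 at 10 µM, against 25.8 to 29.9 without Pb, and did not pass the test.

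Because COL17A1 is a gene of basal epithelium, it was set beside the 14 epithelial markers. Its rise without Pb to 9.29 ± 1.48 CPM at day 12 and 27.9 ± 2.05 CPM at day 15 took place among libraries with the same name prefix as day 6, while KRT5 stood at 0.605 ± 0.0664 and 0.61 ± 0.0645 CPM and KRT14 at 0.354 ± 0.0808 and 0.248 ± 0.0901 CPM. KRT5 and KRT14, the keratin pair of basal keratinocytes, never exceeded 1.08 and 0.843 CPM in the libraries of days 6 to 15. LAMB3, a chain of the laminin that COL17A1 meets in hemidesmosomes, was at 0.558 ± 0.18 CPM at day 6, 2.46 ± 0.746 at day 12 and 0.588 ± 0.293 at day 15. At day 18, 9 of the 10 tested epithelial markers were higher than at day 6, with KRT5 at 34.4 ± 8.34, KRT17 at 33.9 ± 8.76, KRT6A at 23.5 ± 5.75 and LAMB3 at 19.9 ± 5.66 CPM. Without Pb, the means of COL17A1 at days 15 and 18 were 27.9 and 25 CPM. The day 18 mean includes replicate 1, low in long transcripts, at 14 CPM. At 0.16, 1.26 and 10 µM, the means at days 15 and 18 were 33.3 and 44.3, 36.9 and 58, and 31.4 and 44.7 CPM. Day 18 was not tested against day 15. Across doses at day 18, the epithelial markers summed to 137 to 211 CPM without Pb, 133 to 159 at 0.16 µM, 129 to 164 at 1.26 µM and 137 to 158 at 10 µM, and KRT5 had means of 34.4, 32.5, 32.2 and 31.4 CPM. The log2 change of KRT5 at 1.26 µM was -0.07 ± 0.13 (adjusted p = 0.763). How many COL17A1 reads of day 18 came with the epithelial reads was not tested.

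**Figure D5:**
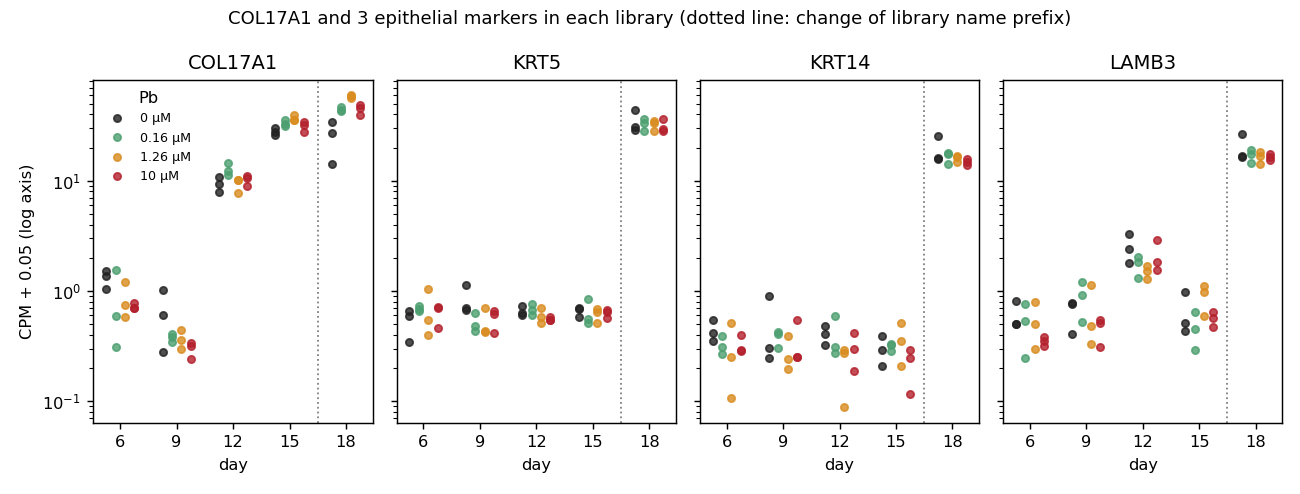
COL17A1, KRT5, KRT14 and LAMB3 in each library (CPM + 0.05, log axis) by day and Pb dose; the dotted line marks the change of library name prefix. COL17A1 climbs at days 12 and 15, where KRT5 and KRT14 stay at or below 1.08 CPM, and the 3 epithelial markers jump at day 18.

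Of the lists around collagen, folding and modification genes had called members in both directions at 10 µM. Averaged over days, 6 of 23 were higher and 2 lower (median log2 change 0.03), where 6.93% of all genes were higher and 8.13% lower. Higher were, among others, PPIB (0.19 ± 0.03, adjusted p = 8.06e-07) and P4HB (0.14 ± 0.02, adjusted p = 3.85e-06). Both of these were highest against the control at day 18, where P4HB stood at 648 CPM at 10 µM and 445 CPM without Pb. At day 12, where COL3A1 was lowest against its control, SERPINH1 stood at 531 CPM at 10 µM and 535 CPM without Pb. Of 11 processing and cross-linking genes none was higher and 2 were lower, PCOLCE (-0.28 ± 0.03, adjusted p = 3.31e-12) and LOXL2, a lysyl oxidase-like enzyme (-0.25 ± 0.04, adjusted p = 1.76e-05). Of 9 receptors LAYN, a hyaluronan receptor placed on this list, was lower (-0.97 ± 0.07, adjusted p = 1.78e-14).

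Of 20 transcription factors, 4 were lower at 10 µM over days and none higher, against 8.13% and 6.93% of all genes. TWIST2 was at 10.7 CPM without Pb and at 4.44, 4.13 and 1.22 CPM at 0.16, 1.26 and 10 µM at day 12 (log2 change at 10 µM -2.43 ± 0.19, adjusted p = 1.41e-12), and the mean over days was -0.71 ± 0.09. WWTR1 (TAZ), a co-activator of the Hippo pathway, was lower by -0.62 ± 0.08 on the mean over days. Of 15 genes of TGF-beta signalling, 1 was higher and 4 were lower, with TGFB2, a ligand, at 3.73 CPM without Pb and 0.256 CPM at 10 µM at day 9. Of 14 collagen-binding matrix proteins, 1 was higher and 4 lower, THBS1, FN1, SPARC and DCN, and of 13 genes of degradation and its inhibitors 4 were higher and 2 lower, with TIMP1 higher (0.32 ± 0.03, adjusted p = 2.19e-11).

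Fibroblast markers counted 2 higher and 4 lower of 8 at 10 µM over days, against 6.93% and 8.13% of all genes, with FAP (-0.48 ± 0.06), PDGFRA (-0.40 ± 0.06) and DCN (-0.33 ± 0.09) lower and ACTA2 (0.40 ± 0.08) higher. LUM at day 18 was at 86.7, 75.9 and 83 CPM at 10 µM, against 49.4, 45.5 and 51.3 without Pb. The summed level of the fibroblast markers at day 12 lay between 367 and 433 CPM without Pb and between 315 and 348 CPM at 10 µM. POSTN had no read at 10 µM, but it never exceeded 0.0837 CPM in any library, so its level cannot show a difference. The part of these markers' source in the fall of COL3A1 was not tested. No epithelial marker was called at 10 µM over days by limma. The 5 genes outside the collagens whose 20 group means were most like those of COL3A1 were VCAM1 (Pearson's r = 0.934), MGP (0.929), CEBPD (0.899), GSC (0.898) and FAP (0.885), and none of them had a group mean above 3.74 CPM. These values describe groups that share libraries, days and doses.

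The 10 µM difference depended on the day, by the moderated F test, in 9 of 24 collagens, where 21.7% of all genes did. These were COL3A1, COL17A1, COL9A3, COL4A1, COL22A1, COL1A1, COL13A1, COL7A1 and COL6A2. Without day 18, 3 were called. The 44 genes do not include 7 antisense, divergent or pseudogene entries named after collagens in the table, and none of these exceeded 0.482 CPM in any library. The strand setting of the counting was not given in the sources used here, so reads of overlapping genes on opposite strands could not be told apart.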

How the data were processed

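RNA of 60 SH-SY5Y libraries was analysed. Per the submitters' processing notes, FastQC, MultiQC, STAR and featureCounts were used with build GRCh38. Versions, annotation, strand setting and treatment of duplicate reads were not given in the sources used here. The authors deposited CPM values for 37334 genes. Divided by the step that a single read makes, 100% of the values came out whole (tolerance 0.01 read, largest deviation 0.00017), which gave back reads and depth.

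A gene entered the tests (15263 did) when 3 or more libraries held 1 CPM or more of it. log2(CPM + 1) was fitted with limma 3.58.1 in R 4.3.3, with 1 mean per group, all 60 libraries, an intensity trend and 40 residual degrees of freedom. Adjustment of the two-sided p-values followed Benjamini and Hochberg, over all genes tested. A fold change on this scale understates the change of low genes. Errors beside log2 changes are SE and beside CPM SD (n = 3). Contrasts were days against day 6 without Pb, each Pb dose against 0 µM within days and as the mean over days, a slope over dose steps, and a moderated F test of 10 µM by day. The model was tested on simulated data.

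Collagens and gene lists were chosen with earlier results of these data known. Values of every library are given for collagens with at least 5 CPM in a group that were among the 8 largest called changes at days 12, 15 or 18 or at 10 µM over days, and for COL4A1, COL4A2 and COL17A1. From other lists, up to 4 genes with the smallest p were eligible to be named for their changes, and cell type markers were also named for their levels. Levels between genes were compared per kb of the longest GENCODE transcript. Positions and promoters come from RefSeq on GRCh38.p14. No promoter entry was matched for COL14A1, COL1A1, COL1A2, COL20A1, COL22A1, COL2A1, COL3A1, COL5A2, COL6A1, COL6A5, COL8A1 and COL9A3. Alternatives were a pseudocount of 0.25, no filter, median-ratio rescaling, fits of only the groups compared, a replicate block, the quasi-likelihood test of edgeR 4.0.16 on whole reads, omission of day 18, of the 2 libraries with the fewest long transcripts or of each library, a linear dose scale and, added after seeing the data, a correction for length and GC content.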

Additional observations from a re-analysis of the deposited data

Results flagged for a closer look

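The difference between 10 µM and 0 µM Pb depended on the day of differentiation in 9 collagen genes, by limma's moderated F test over the 5 days with Benjamini-Hochberg adjustment over all genes. COL3A1 had an adjusted p of 2.27e-11, with log2 changes of -1.10, -2.17, -3.88 and -2.12 at days 6, 9, 12 and 15 and no call at day 18. COL17A1 (adjusted p = 0.00106) and COL22A1 (adjusted p = 0.00539) were higher at day 18. COL1A1 (adjusted p = 0.00772) and COL4A1 (adjusted p = 0.00388) were lower at days 9 and 12, and the day 12 call of COL4A1 was lost in 5 of 6 analyses that each left out 1 library. COL9A3 (adjusted p = 0.00184), with libraries above the untreated ones at day 9 and below them at days 12, 15 and 18, was also among the 9, as were COL13A1 (adjusted p = 0.0159), COL7A1 (adjusted p = 0.0243) and COL6A2 (adjusted p = 0.0371). The day 18 libraries also have a name prefix of their own, and without day 18 the count was 3.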

How the results depend on the processing

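No called change of a collagen reversed its direction under any alternative. The falls of COL3A1 at 0.16, 1.26 and 10 µM over days, at days 12 and 15 for each dose and at day 9 for 1.26 and 10 µM were called under every alternative run and without any library, as were those of COL1A1, COL4A1, COL5A1 and COL4A2 at 10 µM over days.

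Counts of called collagens that moved by over 1.5 times were as follows, and the cause was not tested. Day 9 against day 6 gave 2 without a filter and 2 with only the groups compared, in place of 4, and 1 to 4 without single libraries. The mean over days at 1.26 µM gave 1 in place of 2 with a pseudocount of 0.25, without a filter, with only the groups compared, by edgeR, without day 18 and after the length and GC correction, and 1 to 4 without single libraries. At 0.16 µM, the mean over days gave 1 to 2 without single libraries. At day 18, 0.16 µM gave 5 without a filter, 0 in a fit of the compared groups alone and 0 when the 2 libraries with few long transcripts were omitted, in place of 3, and 0 to 5 without single libraries (0 without replicate 1 at 0 µM). At day 18, 1.26 µM gave 0 in the fit of compared groups and 1 without those 2 libraries, in place of 4, and 1 to 5 without single libraries. At day 9, 1.26 µM gave 1 to 2 without single libraries. At 10 µM, day 6 gave 0 in the fit of compared groups and 0 without those 2 libraries, in place of 1, and 0 to 3 without single libraries (0 without replicate 3 at 10 µM). Day 12 gave 4 after the length and GC correction, in place of 7, and 4 to 6 without single libraries. Day 15 gave 1 in place of 2 with a pseudocount of 0.25, without a filter, with only the groups compared, with the replicate block, by edgeR, after the length and GC correction and without any single library. Day 18 gave 3 with median-ratio rescaling and 3 with only the groups compared, in place of 5, and 3 to 6 without single libraries. The test of 10 µM by day gave 3 without day 18, in place of 9. The dose trend includes all groups, so it has no fit of only the groups compared.

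Same-numbered replicates did not deviate together. Of 19 comparisons, 0 had all 3 correlations of same-numbered libraries above 0.1 (range -0.356 to 0.394), and 21 of 57 libraries correlated best with their own number. A replicate block gave 4, 19, 18 and 16 called collagens at days 9, 12, 15 and 18, as without it, 7 at 10 µM over days, and at 10 µM 1 at day 15 and 6 at day 18. Low members limit these results: 3 reads equal 0.0594 to 0.181 CPM, depending on the depth of the library, and the 20 untested collagens, all below 1 CPM, rest on few reads. Where 1 library was left out of a group, the remaining 2 were assumed to vary like the other groups.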

Other observations

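Untested collagens with reads mainly at day 18 were seen when the filter on low values was lifted. COL4A5 and COL4A6, the X-linked basement membrane chains, COL12A1 and COL8A1 were then higher at day 18 than at day 6 without Pb, with log2 changes on log2(CPM + 1) of 0.30 (adjusted p = 7.78e-08), 0.36 (adjusted p = 4.94e-09), 0.35 (adjusted p = 2.56e-07) and 0.35 (adjusted p = 0.000138) by limma. Their highest library values were 0.418, 0.362, 0.393 and 0.635 CPM. COL2A1 was higher at day 15 (0.50, adjusted p = 0.00259), and COL28A1 was higher at 10 µM at day 18 (0.37, adjusted p = 0.00215). COL14A1 was higher at day 12 (0.18, adjusted p = 0.0135). At 0.16 µM at day 18, COL20A1 was higher (0.28, adjusted p = 0.0191) and COL4A5 lower (-0.15, adjusted p = 0.049). These genes were named after their values were seen, and day 18 cannot be told apart from its library name prefix.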
